A study of Mus musculus with 6 samples.

Results

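Islet gene expression was compared between the male offspring of mice given 100 and 10 µg/kg/day of bisphenol-A in pregnancy, called BPA100 and BPA10. The comparison uses 4 of the 6 Affymetrix arrays of the series, 2 for each dose, chosen by their dose labels, and the 2 vehicle arrays serve only as a reference level and for the shared estimate of the spread. All mice were wild-type males of the outbred OF-1 stock, dosed through the mother between gestation days 9 and 16, and their islets of Langerhans were taken at postnatal day 30. The BPA10 arrays carried RNA of 1 mouse (replicate 1) and of 2 mice (replicate 2), each BPA100 array that of 1 mouse, and the vehicle arrays that of 5 mice (replicate 1) and 1 mouse (replicate 2).

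Bisphenol-A is a plastics monomer that binds estrogen receptors weakly, and hormone-like agents can act differently at low and high doses, so a response need not grow with the dose. The islet holds insulin-secreting beta cells with alpha, delta and pancreatic polypeptide cells, and its beta cells divide actively in the first weeks of life. An isolated islet also carries blood vessel cells, macrophages, fibroblast-like stellate cells and, depending on how cleanly it was separated, enzyme-secreting acinar and duct cells of the surrounding pancreas.

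No probe set, the array's unit of measurement for a transcript, passed the adjusted test for a difference between the doses. Of 27022 probe sets tested with limma, 0 had an adjusted p under 0.05 (smallest adjusted p = 0.897). At an unadjusted p under 0.05 stood 1283, or 4.75%, with 659 higher in BPA100 (2.44%) and 624 lower (2.31%), where 5% of the probe sets would be 1351. Both BPA100 arrays lay above both BPA10 arrays for 15.7% of probe sets and below them for 15%. BPA10 replicate 2 correlated with BPA100 replicate 1 at 0.975, with its own replicate at 0.968, while the BPA100 replicates correlated at 0.968. Every difference given from here on is therefore a measured value that did not pass the adjusted test, as a difference of mean log2(signal + 1), BPA100 minus BPA10, ± the standard error (SE) of the fit with 2 arrays per dose. The labels do not say whether the arrays came from separate litters, so the test measures the spread between these arrays only.

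The islet label held on all 6 arrays: the hormone genes Ins2, Gcg, Sst and Ppy had signals from 2680 to 13666, the lowest for Ins2. Acinar genes were bright as well, with Prss2 at 7436 to 13512. None of the defining markers of other cell types that were matched to a probe set was at 0, although the T cell gene Cd3e (4 to 18) and the fat cell gene Adipoq (9 to 23) lay below the brightness filter. The gap between the doses was not equal over the gene lists: lists of Reg proteins, stellate cells, acinar cells, genes disallowed in beta cells and macrophages had the most negative medians, and the beta-cell identity list had a median of -0.00. Over the 13193 genes tested, each by its brightest probe set, the median was -0.02, and 53% were lower in BPA100.

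**Figure D1:**
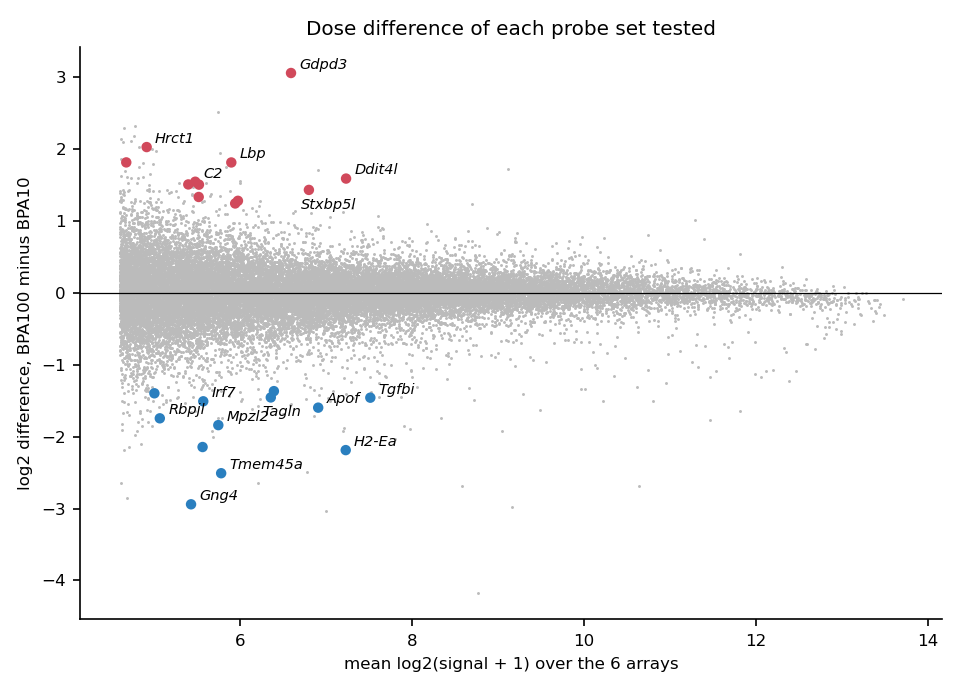
Difference between the doses (BPA100 minus BPA10, log2) against the mean log2(signal + 1) over 6 arrays for the 27022 probe sets tested, each a point. Coloured points are the 24 genes with the largest differences under the naming rule, red where BPA100 was higher and blue where it was lower, from 3.06 for Gdpd3 to -2.94 for Gng4; the grey cloud narrows as signals grow.

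The genes with the largest positive differences were named by a rule that asked for an unadjusted p under 0.01, dose arrays that do not overlap and a mean signal of at least 50 in the higher dose. For a gene so named, in either direction, the 95% interval leaves out 0 because of the rule itself. Gdpd3, an enzyme that releases lysophospholipids, measured 18 and 150 on the BPA10 arrays, 456 and 437 on the BPA100 arrays, and 42 and 32 on the vehicle arrays. The BPA100 arrays were close together and above every other array, while the BPA10 arrays were spread on both sides of vehicle. The difference was 3.06 ± 0.76, or 8.35-fold (adjusted p = 0.911), and it was 1.57 without BPA10 replicate 1 and 4.56 without BPA10 replicate 2. Each of these fits leaves BPA10 as a lone array that is assumed to vary like the other groups. Ddit4l, an inhibitor of the growth kinase mTOR, measured 146 and 100 in BPA10, 454 and 296 in BPA100, and 81 and 70 in vehicle, so its levels were ordered by dose with no overlap. Its difference was 1.59 ± 0.26 (95% interval 0.99 to 2.20, adjusted p = 0.897), and its 2 other probe sets gave 1.35 and 1.53. Stxbp5l, a tomosyn that restrains the fusion of secretory granules, measured 50 and 103 in BPA10, 162 and 237 in BPA100, and 84 and 110 in vehicle (1.44 ± 0.35), and its other probe sets gave 0.94 and 1.07.

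Some of these genes stood at or near the vehicle level in BPA100 and below it in BPA10. Lbp, which carries bacterial lipopolysaccharide to its receptor, measured 17 and 36 in BPA10, 93 and 87 in BPA100, and 94 and 86 in vehicle. Its brighter probe set had the same pattern, at 159 and 367, 710 and 900, and 923 and 853, and the differences were 1.82 ± 0.35 and 1.72 ± 0.33. Hrct1, a small histidine-rich membrane protein, measured 11 and 13 in BPA10 against 53 and 51 in BPA100 and 45 and 34 in vehicle (2.03 ± 0.34). The complement gene C2 measured 18 and 34 against 84 and 66, with 48 and 42 in vehicle (1.55 ± 0.35; other probe sets 1.14 and 1.37). In C2 and Hrct1 both BPA10 arrays lay under both vehicle arrays and both BPA100 arrays above them, a pattern also seen in Myo9b, an unconventional myosin (1.51), and Inpp1, an inositol phosphatase (1.28). Such a split, in either direction, was found for 422 probe sets, or 1.56% of those tested. The remaining genes higher in BPA100 under the rule were Polr2a (1.82), Mapk1ip1l (1.51), Smim10l1 (1.34) and Zfp945 (1.25), none with a signal above 99 on any array. Their other probe sets differed less, with 0.17 for Polr2a, -0.03 for Mapk1ip1l, -0.60 to 0.29 for Smim10l1 and 0.00 and 0.11 for Zfp945, and the same was seen in Myo9b (0.01) and Inpp1 (0.35).

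**Figure D2:**
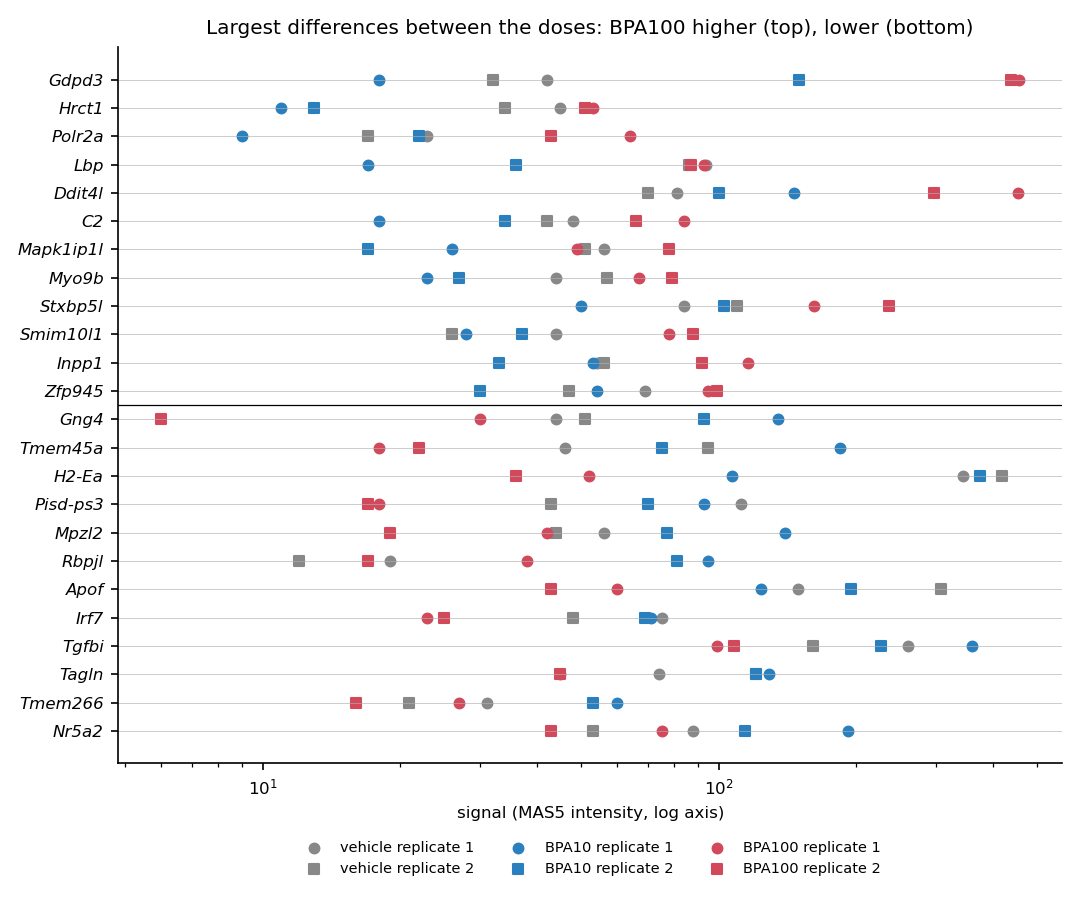
MAS5 signal on a log axis for the 24 genes with the largest dose differences, with vehicle arrays in grey, BPA10 in blue and BPA100 in red, circles for replicate 1 and squares for replicate 2. In the top 12 rows the red points lie to the right of the blue ones and in the bottom 12 to the left, because the naming rule asks for it; the vehicle points lie between the doses for some genes, as for Hrct1 and Gng4, and with 1 of the doses for others, as for Lbp.

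The most negative difference under the rule was that of Gng4, a gamma subunit of G proteins, which measured 135 and 93 in BPA10, 30 and 6 in BPA100, and 44 and 51 in vehicle. The doses lay on opposite sides of vehicle, and the difference was -2.94 ± 0.61 (7.68-fold, adjusted p = 0.897), or -1.87 without BPA100 replicate 2, while its 2 other probe sets gave -0.52 and -0.49. Tmem45a, a membrane protein of epithelia and fibroblasts, measured 185 and 75 in BPA10, 18 and 22 in BPA100, and 46 and 95 in vehicle (-2.51 ± 0.47). Mpzl2, an adhesion molecule of epithelial cells, measured 140 and 77 in BPA10, 42 and 19 in BPA100, and 56 and 44 in vehicle (-1.84 ± 0.43; other probe set -1.43). Here too the vehicle arrays lay between the doses. Irf7, a transcription factor of the interferon response, was alike in BPA10 (71 and 69) and vehicle (75 and 48) and lower in BPA100 (23 and 25), a difference of -1.51 ± 0.30. H2-Ea, a chain of the MHC class II molecule I-E that some mouse haplotypes do not express, measured 107 and 375 in BPA10, 52 and 36 in BPA100, and 343 and 419 in vehicle (-2.19 ± 0.49; other probe set -2.84). Apolipoprotein gene Apof showed a similar order (124 and 195, 60 and 43, and 149 and 307; -1.60 ± 0.37). Pisd-ps3, a pseudogene, had a difference of -2.14, with -0.51 to 0.50 on other probe sets, and Tmem266 one of -1.40. Tgfbi, an extracellular matrix protein induced by TGF-beta, measured 359 and 227 in BPA10, 99 and 108 in BPA100, and 260 and 161 in vehicle (-1.46 ± 0.28; other probe sets -0.94 to -0.46). The other named genes of this direction, Tagln, Rbpjl and Nr5a2, belong to the stellate and acinar lists described next.

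**Figure D3:**
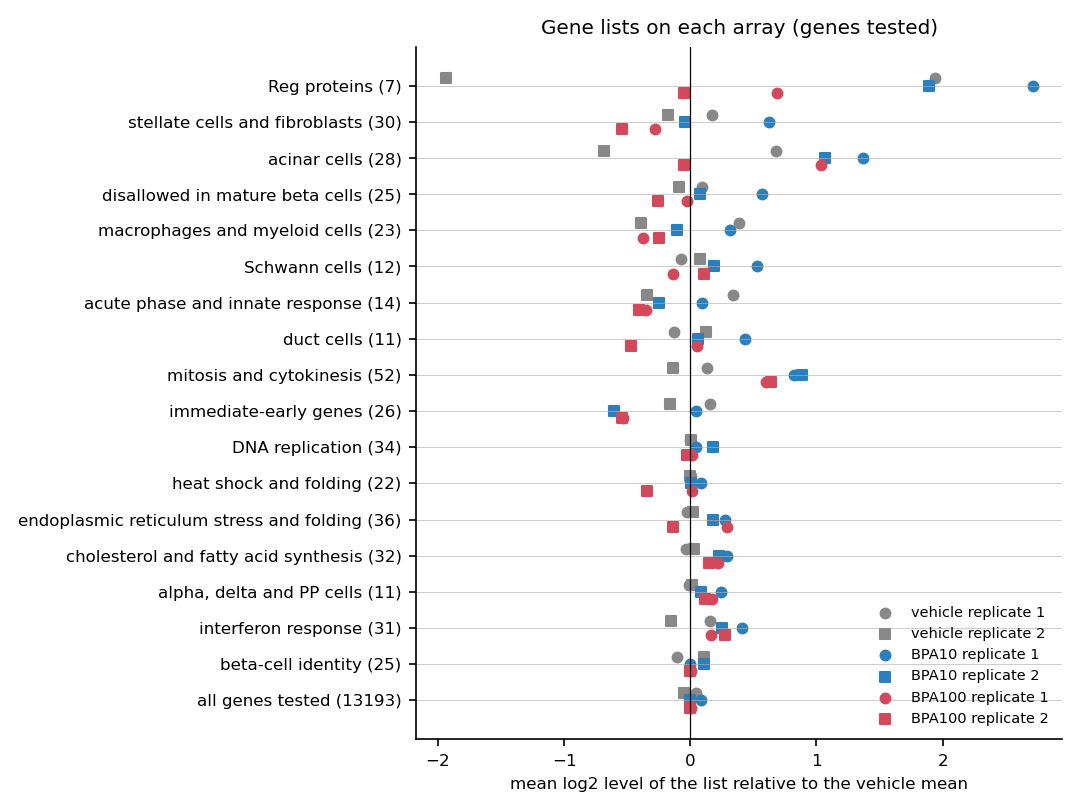
Mean log2 level of each gene list on each array relative to the mean of the vehicle arrays, with the number of genes tested in parentheses; colours mark the groups and shapes the replicates. The BPA100 points lie left of the BPA10 points for stellate-cell, Reg and mitosis genes, whereas the vehicle replicates of the Reg list lie at 1.94 and -1.94, wider apart than either dose pair.

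Reg proteins are secreted lectins made by acinar cells, and some by islets, under inflammation and injury, and 6 of the 7 Reg genes lie within 98490 bases of mouse chromosome 6. All 7 were lower in BPA100 than in BPA10, with a median of -1.77, and 2 had an unadjusted p under 0.05 (2.65% of all genes tested were lower at that p). For 5 of 7 both BPA100 arrays were below both BPA10 arrays, against 17% of all genes tested. Since the Reg genes shared a direction, the 250 bases before the start site of 4 of them are shown, from RefSeq on build GRCm38.p6, 5′ to 3′ along the gene. Capitals mark CACCTG, read on both strands, part of the site bound by PTF1, the transcription factor complex of acinar cells.
Reg3a, chr6:78380459-78380708, plus strand: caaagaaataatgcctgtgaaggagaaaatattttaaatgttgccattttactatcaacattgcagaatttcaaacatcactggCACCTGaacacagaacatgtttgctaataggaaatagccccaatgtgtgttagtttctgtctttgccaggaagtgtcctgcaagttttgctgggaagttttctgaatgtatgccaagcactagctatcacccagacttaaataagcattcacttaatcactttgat
Reg3d, chr6:78378866-78379115, minus strand: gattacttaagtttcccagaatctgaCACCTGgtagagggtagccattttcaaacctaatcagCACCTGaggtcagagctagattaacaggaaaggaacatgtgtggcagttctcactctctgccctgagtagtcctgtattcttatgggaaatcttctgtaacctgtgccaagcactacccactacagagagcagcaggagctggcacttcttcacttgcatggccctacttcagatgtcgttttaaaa
Reg3b, chr6:78370635-78370884, plus strand: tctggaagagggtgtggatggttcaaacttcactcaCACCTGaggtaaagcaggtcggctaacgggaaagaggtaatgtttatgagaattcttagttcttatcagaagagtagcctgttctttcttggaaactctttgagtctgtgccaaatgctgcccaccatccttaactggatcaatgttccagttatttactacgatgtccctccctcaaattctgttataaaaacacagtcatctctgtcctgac
Reg2, chr6:78404905-78405154, plus strand: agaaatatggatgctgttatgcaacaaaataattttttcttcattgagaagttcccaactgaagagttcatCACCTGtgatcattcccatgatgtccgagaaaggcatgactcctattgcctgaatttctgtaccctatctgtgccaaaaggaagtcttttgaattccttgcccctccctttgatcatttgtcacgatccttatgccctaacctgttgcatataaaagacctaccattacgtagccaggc

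These letters were found in the 250 bases before the start of 5 of 7 Reg genes (71.4%) and of 13 of the 22 acinar-list genes with a promoter in the table (59.1%), against 17.2% of all 32851 promoters. Reg1 and Reg3g had no match, while Reg4 had 1. A listed gene counted if any of its promoters matched, whereas the 17.2% counts each promoter singly, so the units differ. A match is a description of the sequence and not a bound site, and its relation to the dose differences was not tested. Reg3a had the most negative difference of the list: it measured 3674 and 1902 in BPA10, 222 and 95 in BPA100, and 1869 and 24 in vehicle. The BPA100 arrays were below both BPA10 arrays, but the vehicle arrays spanned from below BPA100 to just under BPA10, and the difference was -4.18 ± 1.57 (adjusted p = 0.964). Reg3d measured 2474 and 1670 in BPA10, 537 and 122 in BPA100, and 1628 and 78 in vehicle (-2.98 ± 1.20). Reg3b, an antibacterial lectin, measured 10721 and 5763, 1798 and 2966, and 4790 and 326 (-1.77 ± 0.99), and Reg2 10570 and 8025, 3341 and 2619, and 7547 and 390 (-1.64 ± 1.06). In each of these 4 genes vehicle replicate 2, the vehicle array of 1 mouse, was the lowest array. Reg1 and Reg4 overlapped between the doses (-0.53 and -0.31), and Reg3g measured 1119 and 164 in BPA10 against 75 and 76 (-2.49 ± 1.77).

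Acinar-cell markers had a median of -0.64, with 28 of 28 genes lower in BPA100, 3 of them at an unadjusted p under 0.05 (2.65% of all genes) and 9 with no overlap (17% of all genes). The list mean relative to vehicle stood at 1.37 and 1.07 on the BPA10 arrays but at 1.04 and -0.05 on the BPA100 arrays, and at 0.68 and -0.68 on the vehicle arrays. The median was -0.04 without BPA100 replicate 2 and -1.25 without BPA100 replicate 1, so its size rests on BPA100 replicate 2. The summed signal of the list was 229825 and 202949 in BPA10, 206948 and 111315 in BPA100, and 161869 and 79140 in vehicle. Rbpjl, the acinar form of the PTF1 partner RBPJ, measured 95 and 81 in BPA10, 38 and 17 in BPA100, and 19 and 12 in vehicle (-1.74 ± 0.44), so BPA10 stood above both vehicle arrays and BPA100 overlapped them. Nr5a2, a nuclear receptor of acinar cells, measured 192 and 114 against 75 and 43 (-1.37 ± 0.38; other probe sets -0.61 and 0.22), and the trypsinogen Prss3 3780 and 4599 against 3401 and 1575 (-0.85 ± 0.36). The granule protein gene Sycn (10958 and 9757 against 9274 and 3900) differed by -0.78 ± 0.48 and the carboxypeptidase Cpa1 by -0.40 ± 0.27. With the acinar mean of each array as a covariate, the median of the Reg list was -0.20 and that of the acinar list 0.08. That fit uses all 6 arrays, and the vehicle replicates were the farthest apart in both lists. BPA100 replicate 1 and BPA10 replicate 2 had acinar list means of 1.04 and 1.07 but Reg list means of 0.69 and 1.89. Without BPA100 replicate 2 the Reg median was -1.92. Whether acinar content accounts for the Reg difference was not tested. In bulk islets, fewer cells of a type and less RNA per cell cannot be told apart.

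Markers of stellate cells and fibroblasts, which build the matrix around islets and ducts, had the largest share of members at an unadjusted p under 0.05. Of 30 genes 29 were lower in BPA100, 14 at that p (2.65% of all genes), 17 had no overlap between the doses (17% of all genes), and the median was -0.71. The contractile protein gene Tagln measured 129 and 121 in BPA10, 45 and 45 in BPA100, and 74 and 121 in vehicle, a difference of -1.45 ± 0.27 (95% interval -2.06 to -0.84, adjusted p = 0.897). Smooth muscle actin, Acta2, measured 1037 and 700 in BPA10, 391 and 452 in BPA100, and 487 and 640 in vehicle, with the doses on opposite sides of vehicle (-1.02 ± 0.21). The collagen gene Col1a1 measured 275 and 147, 86 and 70, and 178 and 135 (-1.36 ± 0.30), and the matrix protein periostin, Postn, 503 and 362, 210 and 253, and 252 and 240 (-0.89 ± 0.19). BPA10 was above vehicle for Postn and BPA100 below vehicle for Col1a1, and in Acta2, Postn and Col1a1 the BPA10 replicates were farther apart than the BPA100 replicates. The list mean relative to vehicle was 0.62 and -0.04 on the BPA10 arrays and -0.28 and -0.54 on the BPA100 arrays, between 0.17 and -0.17 on vehicle. The median was -0.35 without BPA10 replicate 1, with 25 of 30 genes lower, -1.13 without BPA10 replicate 2 and -0.43 with the acinar covariate. Des, the filament of muscle-like cells, gave -0.52 ± 0.34, while its other probe set gave 1.28.

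**Figure D4:**
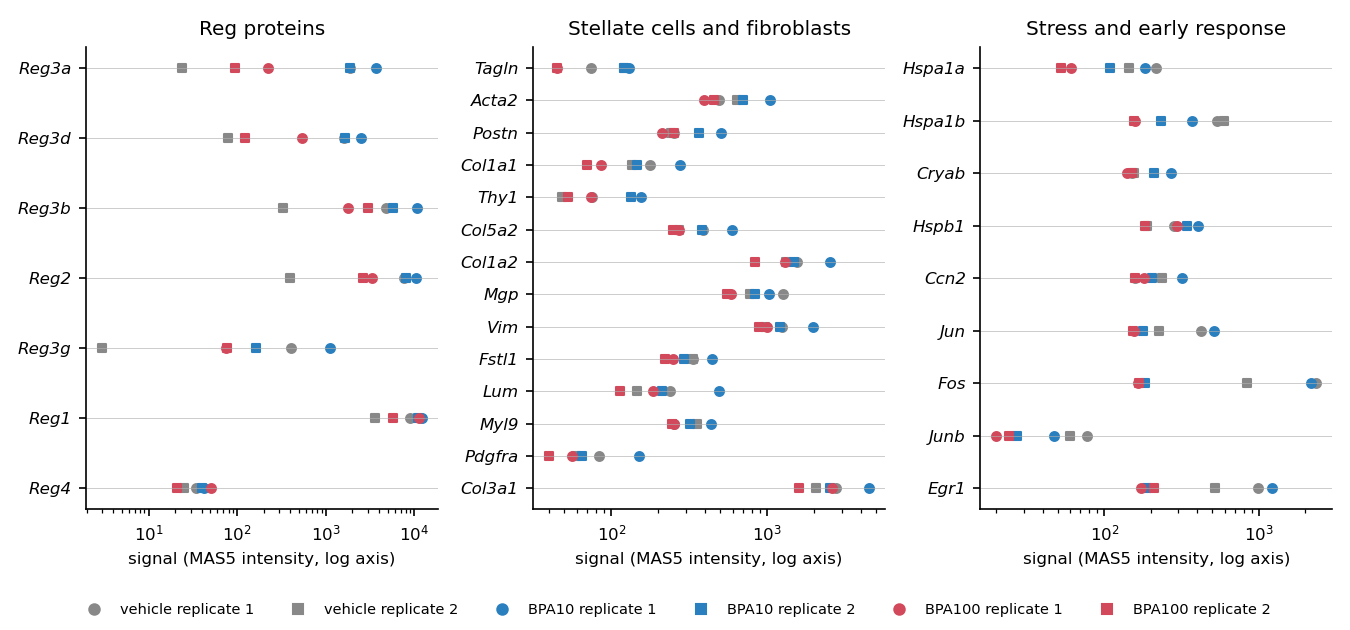
MAS5 signal on a log axis for the 7 Reg genes, the 14 stellate-list genes with the smallest p, and 4 heat shock and 5 immediate-early genes, by group (colour) and replicate (shape). BPA100 replicates of Tagln and Hspa1b coincide or nearly so left of the BPA10 points, while Fos and Egr1 are high in BPA10 replicate 1 and not in BPA10 replicate 2.

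Other lists of cells and tissue shared this direction, with BPA10 replicate 1 the highest of the 4 dose arrays in each. Macrophage and myeloid markers had a median of -0.42 (21 of 23 lower, 2 at an unadjusted p under 0.05, against 2.65% of all genes), or -0.16 without BPA10 replicate 1 and -0.69 without BPA10 replicate 2. Their list mean was 0.32 and -0.11 in BPA10, -0.38 and -0.25 in BPA100, and 0.39 and -0.39 in vehicle. Fcer1g, an immune receptor chain, measured 91 and 72 against 47 and 44 (-0.82 ± 0.27), Aif1, a macrophage calcium-binding protein, 112 and 91 against 48 and 71 (-0.78 ± 0.34), and the lysozyme Lyz2 274 and 162 against 123 and 79 (-1.09 ± 0.67), below the 803 of vehicle replicate 1. Ptprc, the common leukocyte antigen CD45, and Lyz1 differed by -0.55 and -1.49. Schwann-cell markers had a median of -0.38 (11 of 12 lower, 2 at that p, against 2.65% of all genes), or -0.14 without BPA10 replicate 1, -0.58 without BPA10 replicate 2 and -0.22 without BPA100 replicate 1. Among them the myelin gene Pmp22 stood at 416 and 361 against 280 and 291 (-0.44 ± 0.15), Ngfr at -1.16, Fabp7 at -0.65 and Scn7a at -0.45. Duct-cell markers had a median of -0.29 (10 of 11 lower, 3 at that p, against 2.65% of all genes). It was -0.16 and -0.48 without BPA10 replicates 1 and 2, and -0.46 and -0.14 without BPA100 replicates 1 and 2. Keratin genes led them: Krt8 measured 2242 and 2097 in BPA10, 1778 and 1399 in BPA100, and 1843 and 1944 in vehicle (-0.46 ± 0.14), and Krt19 296 and 77, 75 and 35, and 70 and 179 (-1.54 ± 0.66, or -0.58 without BPA10 replicate 1). The duct factor Sox9 and the mucin Muc1 differed by -1.08 and -1.03. Whether cell content accounts for the differences in these or any other lists was not tested.

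Genes that mature beta cells keep silent, called disallowed, had a median of -0.52, with 23 of 25 lower in BPA100, 9 at an unadjusted p under 0.05 (2.65% of all genes) and 17 without overlap (17% of all genes). Many of them are expressed in fibroblasts and other islet cells, and Pdgfra, a fibroblast receptor, is in both this and the stellate list. The antioxidant enzyme Cat measured 471 and 281 in BPA10, 182 and 242 in BPA100, and 284 and 279 in vehicle (-0.79 ± 0.25). The growth factor Igf1 measured 215 and 126 against 114 and 68 (-0.89 ± 0.32), its binding protein Igfbp4 370 and 273 against 225 and 171 (-0.69 ± 0.27) and Pdgfra 151 and 65 against 56 and 40 (-1.05 ± 0.40). Each of these was lower in BPA100 with no overlap, but for Cat, Igf1 and Pdgfra 1 BPA10 array was far above the other. The list mean was 0.57 and 0.07 in BPA10 and -0.03 and -0.26 in BPA100, and the median was -0.24 without BPA10 replicate 1, -0.82 without BPA10 replicate 2, -0.38 without BPA100 replicate 2 and -0.35 with the acinar covariate.

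Genes of mitosis and cytokinesis were close together within each dose. Their list mean relative to vehicle was 0.83 and 0.89 on the BPA10 arrays and 0.60 and 0.64 on the BPA100 arrays, so the higher dose lay between BPA10 and vehicle (0.14 and -0.14). The median difference was -0.25, with 42 of 52 genes lower in BPA100, 3 at an unadjusted p under 0.05 (2.65% of all genes) and 29 without overlap (17%). It lay between -0.29 and -0.20 when any dose array was left out. Nek2, a centrosome kinase, measured 120 and 126 in BPA10 and 70 and 70 in BPA100, with 42 and 27 in vehicle (-0.80 ± 0.27; other probe sets -0.30 and 0.33). For the spindle gene Hmmr the signals were 171 and 181 against 121 and 118 (-0.55 ± 0.19), and for Ube2c, a ubiquitin carrier that drives mitotic exit, they were 200 and 213 against 138 and 148 (-0.53 ± 0.20). Cdca8, a subunit of the chromosomal passenger complex, differed by -0.60 ± 0.26. In each of these genes the BPA100 arrays lay between the BPA10 and vehicle arrays. The cycling-cell marker Mki67 measured 235 and 279 against 213 and 241, a difference of -0.18 with a 95% interval from -0.57 to 0.21. The mitotic kinase Cdk1 (-0.26, interval -0.67 to 0.15) and topoisomerase Top2a (-0.21, -0.62 to 0.20) also had intervals that include 0 and shifts of that size. DNA replication genes had a median of -0.13 (27 of 34 lower, 0 at an unadjusted p under 0.05), -0.03 without BPA10 replicate 2, with Cdt1, a licensing factor for replication, at 261 and 292 against 221 and 208 (-0.36 ± 0.16), and Dtl, Tyms and Orc6 at -0.43, -0.78 and -0.34. The G1 cyclin Ccnd2 differed by 0.04 (-0.24 to 0.32) and the inhibitor Cdkn1a by 0.16 (-0.47 to 0.80; other probe set 0.99).

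Beta-cell identity genes had a median of -0.00, with 13 of 25 lower and 3 of these at an unadjusted p under 0.05 (2.65% of all genes), and after quantile normalization 6 of 25 were lower, with a median of 0.081. Those 3 were Npy, Pdx1 and Ins2. Npy, a neuropeptide of immature beta cells, measured 544 and 459 in BPA10, 269 and 338 in BPA100, and 410 and 567 in vehicle (-0.73 ± 0.20). Pdx1, the transcription factor that maintains beta cells, measured 1346 and 1401 in BPA10, 1077 and 956 in BPA100, and 1006 and 1121 in vehicle, so BPA100 overlapped vehicle and lay below BPA10 (-0.44 ± 0.13, 95% interval -0.73 to -0.14, adjusted p = 0.964; other probe set -0.03). Ins2, an insulin gene, measured 4873 and 4797 in BPA10, 4139 and 2680 in BPA100, and 3546 and 3552 in vehicle (-0.54 ± 0.19), and its difference was -0.22 without BPA100 replicate 2. Ucn3, a marker of mature beta cells, gave 0.44 ± 0.26, with 1567 and 2143 in BPA10 and 2275 and 2709 in BPA100. The glucose transporter gene Slc2a2 and the amyloid gene Iapp differed by -0.05 (-0.33 to 0.24) and -0.10 (-0.43 to 0.24; other probe sets 0.10 to 0.77), and both turned positive after quantile normalization (0.08 and 0.09). Genes of alpha, delta and pancreatic polypeptide cells had a median of -0.07 (7 of 11 lower, 0 at an unadjusted p under 0.05), or 0.0815 with 4 of 11 lower after quantile normalization, with the retinol carrier Rbp4 at 0.33 ± 0.15, Ppy at -0.25, Gcg at -0.21 and the transporter Slc7a2 at 0.17. Sst, the delta-cell hormone, differed by -0.00 (-0.28 to 0.28; 0.19 after quantile normalization).

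Heat shock genes differed by gene rather than as a list. The list median was -0.12, with 15 of 22 lower and 4 of these at an unadjusted p under 0.05 (2.65% of all genes), and it was 0.07 without BPA100 replicate 2 and -0.31 without BPA100 replicate 1. Those 4 were Hspa1a, Hspa1b, Cryab and Hspb1, chaperones that cells induce under stress. Hspa1a measured 182 and 109 in BPA10, 61 and 52 in BPA100, and 217 and 144 in vehicle (-1.31 ± 0.30), and Hspa1b 368 and 233, 157 and 155, and 535 and 595 (-0.90 ± 0.22); 2 other probe sets of Hspa1b were lower as well, 1 of them by -1.19. In Hspa1b the 3 groups did not overlap and were lower with each step in dose. These genes are near-identical copies whose probes may not separate them, which was not tested. In the 250 bases before their start sites, which lie outside the transcript, 247 agree. Capitals mark GAANNTTC, read on both strands, the core of a heat shock element, on build GRCm38.p6.
Hspa1a, chr17:34972157-34972406, minus strand: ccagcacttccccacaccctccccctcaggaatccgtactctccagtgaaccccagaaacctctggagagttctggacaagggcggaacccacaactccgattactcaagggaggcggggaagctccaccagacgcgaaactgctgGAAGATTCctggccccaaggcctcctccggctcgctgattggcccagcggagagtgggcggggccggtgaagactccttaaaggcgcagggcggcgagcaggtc
Hspa1b, chr17:34959239-34959488, minus strand: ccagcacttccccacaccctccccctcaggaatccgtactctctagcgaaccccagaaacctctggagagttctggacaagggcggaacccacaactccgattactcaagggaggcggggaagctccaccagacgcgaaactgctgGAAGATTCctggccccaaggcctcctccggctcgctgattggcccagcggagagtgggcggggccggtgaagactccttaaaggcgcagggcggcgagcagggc

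That core was found before the start of 6 of 18 genes of the heat shock list with a promoter in the table (33.3%) and in 6.69% of all promoters. Here too a listed gene counted if any of its promoters matched, whereas the share of all promoters counts each singly. Cryab, a small chaperone also made by muscle-like cells, measured 269 and 209 in BPA10, 141 and 150 in BPA100, and 151 and 156 in vehicle (-0.70 ± 0.18), so here BPA10 stood above vehicle and BPA100 just under it, whereas in Hspa1b both doses were below vehicle. Hspb1 measured 406 and 342 against 294 and 183 (-0.68 ± 0.26; other probe set -0.07).

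The immediate-early list, of transcription factors and regulators that many stimuli induce rapidly, had a median of -0.14 (18 of 26 lower, 0 at an unadjusted p under 0.05), which turned to 0.02 without BPA10 replicate 1. Fos, a subunit of the AP-1 factor, measured 2165 and 183 in BPA10, 165 and 168 in BPA100, and 2349 and 841 in vehicle, so its difference of -1.91 ± 0.95 rests on BPA10 replicate 1 and was -0.14 without it. Egr1 measured 1222 and 189 in BPA10 and 173 and 211 in BPA100 (-1.33, and 0.02 without BPA10 replicate 1). Ccn2, Jun and Junb differed by -0.60, -0.97 and -0.68. Acute phase and innate response genes had a median of -0.30 (10 of 14 lower; -0.14 without BPA10 replicate 1, with 8 of 14 lower, and -0.52 without BPA10 replicate 2), with 4 lower and, with Lbp, 1 higher at an unadjusted p under 0.05 (2.65% of all genes tested were lower and 1.66% higher at that p). The metal-binding metallothionein genes were among the 4: Mt1 measured 7020 and 5470 in BPA10, 4206 and 3517 in BPA100, and 3416 and 2336 in vehicle (-0.69 ± 0.20; other probe set -0.84), and Mt2 3727 and 2582, 1934 and 2229, and 1535 and 1304 (-0.58 ± 0.19). In both, BPA100 lay between BPA10 and vehicle with no overlap of the 3 groups. Nfkbia, an inhibitor of the inflammatory factor NF-kappaB, differed by -0.41.

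Genes of endoplasmic reticulum stress and folding had a median of -0.10 (26 of 36 lower, 0 at an unadjusted p under 0.05), which turned to 0.099 without BPA100 replicate 2 and was -0.28 without BPA100 replicate 1. Derl3, Xbp1, Sel1l and Chac1 differed by -0.44, -0.26, -0.55 and -1.45, the last with 978 and 188 in BPA10. Interferon response genes had a median of -0.05 (19 of 31 lower, 1 at an unadjusted p under 0.05, Irf7, a share near the 2.65% of all genes), with Ifit1, Irgm1 and Oas1a at -0.54, -0.43 and 0.34. Enzymes that make cholesterol and fatty acids had a median of -0.09, with 22 of 32 lower, of which 2 had an unadjusted p under 0.05 (2.65% of all genes), as had 1 that was higher (1.66% of all genes), so both counts are near those of all genes. The sterol enzymes Fdft1 and Nsdhl differed by -0.40 ± 0.14 and -0.37 ± 0.14, Cyp51 by 0.43 ± 0.17 (other probe sets -0.59 and 0.09) and Acss2 by 0.31. The membrane estrogen receptor gene Gper1, at 62 and 47 against 47 and 47, differed by -0.20 (-0.83 to 0.44; other probe set -0.56).

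**Figure D5:**
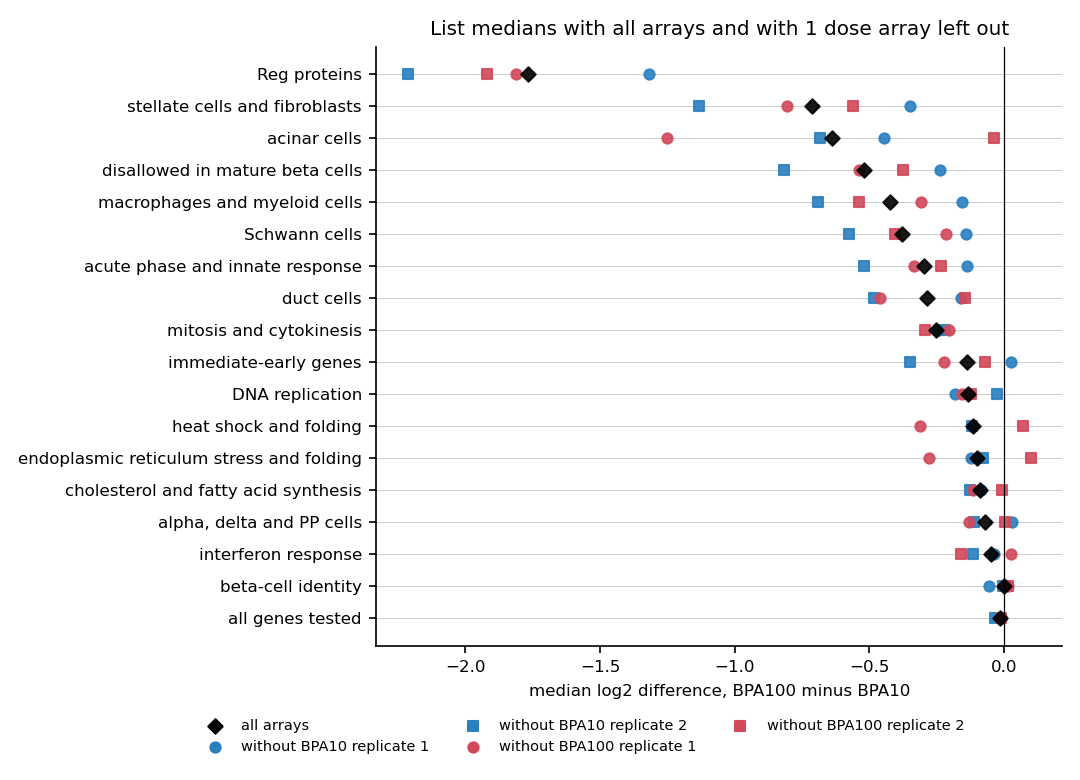
Median log2 difference (BPA100 minus BPA10) of each list with all arrays (black diamonds) and with 1 dose array left out (blue for BPA10, red for BPA100; circles for replicate 1, squares for replicate 2). The mitosis median stays between -0.29 and -0.20, whereas the acinar median moves between -1.25 and -0.04.

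The other 18 lists had medians from -0.33 to 0.05. Those of MHC class II genes (-0.33, 6 genes), red blood cells (-0.26, 3 genes), lymphocytes (-0.19, 8 genes) and cytosolic ribosomal proteins (-0.10, 37 genes) were the lowest. After quantile normalization the ribosomal median was -0.0038, with 19 of 37 genes lower in BPA100, against 31 of 37 without it. The remaining 14, among them endothelial, apoptosis, G1 control, estrogen receptor, insulin secretion, oxidative phosphorylation, xenobiotic, imprinted and clock genes, lay between -0.05 and 0.05, against -0.02 for all genes. Both comparisons with vehicle share the vehicle arrays, and their list medians stand side by side as follows: 0.89 for BPA10 and 0.64 for BPA100 in mitosis genes, 1.07 and 0.49 in acinar genes, 2.50 and 0.50 in Reg genes, and 0.35 and -0.34 in stellate-cell genes. By list mean, mitosis genes were the only ones of the lists just compared with both doses above both vehicle arrays. The same order, with smaller gaps, was seen for alpha, delta and pancreatic polypeptide cells, interferon response, and cholesterol and fatty acid synthesis. For Reg genes, vehicle (1.94 and -1.94) overlapped BPA10 (2.71 and 1.89). Acinar genes on vehicle (0.68 and -0.68) lay below BPA10 (1.37 and 1.07) and overlapped BPA100 (1.04 and -0.05). Stellate-cell genes on BPA10 (0.62 and -0.04) overlapped vehicle (0.17 and -0.17), and on BPA100 they lay below it.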

How the data were processed

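Each array came as a column of deposited linear intensity values, 1 for each probe set. The submitters' processing notes name MAS5; its version was not given in the sources used here. Read from the values, each of the 6 arrays had been scaled to a mean of 150.0 with 2% of values left out at each end, so a level is relative to the rest of its array. Median signals were 33 to 40. The platform annotation named 1 gene for 34945 of 45037 non-control probe sets, several for 932 and none for 9160.

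Tests used log2(signal + 1). The added 1 makes the fold changes of dim probe sets slightly smaller, but their differences also scattered more widely than those of bright ones. The 27022 probe sets with a mean log2 at or above the 40th percentile were fitted with limma 3.58.1 in R 4.3.3 on 3 group means with an intensity trend (3 residual and 5.4 prior degrees of freedom; median SE 0.24), with 2-sided tests and Benjamini-Hochberg adjustment over all of them, and tested on simulated data. The number of arrays limits the precision; permuting labels of 2 arrays against 2 could not give a small p, so none was computed. The 35 gene lists, found for 911 of 1023 entries, and the naming rule were written with earlier results of these data known, so a list is described and not tested. The rule takes, in each direction, the 12 largest differences past the adjusted threshold of 0.05; since none passed, places were filled at an unadjusted p under 0.01 without overlap of the doses and with a signal of at least 50. Added to these were, from each list described in detail, the 4 genes of smallest p, and 28 further genes, of which Ins1 and Mafa are not analysed here. The alternatives were quantile normalization, median centring, a pseudocount of 16, no filter or the 60th percentile, no trend, a robust spread, array weights, the 4 dose arrays alone, arrays of 1 mouse, a replicate block, an acinar covariate, averaged probe sets of each gene, and each array left out.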

Additional observations from a re-analysis of the deposited data

How the results depend on the processing

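The number of probe sets with an adjusted p under 0.05 was 0 in all alternatives run except without BPA10 replicate 2, where it was 1 (Gdpd3), so it ranged from 0 to 1 over the arrays left out. The count at an unadjusted p under 0.05 was 2244 with no filter, where more probe sets were tested, 807 with the 60th percentile filter, where fewer were, and 2004 with the replicate block; it ranged from 879 without BPA100 replicate 2 to 2019 without BPA10 replicate 2. The fit on arrays of 1 mouse has the same dose arrays as the fit without BPA10 replicate 2, and both leave BPA10 as a lone array. Replicate numbers are not said to mark a shared litter or day, and the gaps between replicates correlated at 0.19 between vehicle and BPA10, 0.20 between vehicle and BPA100 and 0.08 between BPA10 and BPA100.

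Some differences turned sign, most of them near 0 at the outset, but not the acinar median (-0.64), Cpa1 (-0.40), the lymphocyte median (-0.19) or Egr1 (-1.33). The acinar covariate is the acinar list's own mean, so the return of that list to about 0 follows from its construction. Cpa1 is a member of that list and so enters the covariate itself. For the others the cause was not tested. The values were: after quantile normalization Sst (0.19), Iapp (0.087) and Slc2a2 (0.081); after median centring Sst (0.011); with arrays of 1 mouse Slc2a2 (0.028); with the acinar covariate Iapp (0.0084), Cpa1 (0.0069) and the medians of acinar (0.079), lymphocyte (0.0625) and heat shock genes (0.010); with the 60th percentile filter the lymphocyte median (0.20). With 1 array left out, ranges were -0.35 to 0.024 for the immediate-early median, -0.31 to 0.069 for the heat shock median, -2.67 to 0.016 for Egr1, -0.086 to 0.082 for Sst, -0.28 to 0.087 for Iapp, -0.12 to 0.45 for Cdkn1a, -0.064 to 0.15 for Ccnd2 and -0.12 to 0.028 for Slc2a2. Of the other values of named genes, 1783 kept their sign and side of the threshold and 1, that of Gdpd3, passed it. The red blood cell list gave no value with the 60th percentile filter. With 2 arrays per dose the median SE of 0.24 limits what could be called.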
